A study of Mus musculus with 16 samples.

Results

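The 1093 peaks described here are sites where the erythroid transcription factor KLF1 was found at promoters in mouse red cell precursors and where no peak of its Nan mutant form was listed. They were chosen by the 2 deposited peak lists. Of 5326 KLF1 peaks, 1564 carry the authors' annotation as promoter, and 1093 of these (69.9%) overlap none of the 2758 Nan-KLF1 peaks by 1 bp or more. The other 471 are called shared promoter peaks. Neither list holds a peak under 30.0-fold enrichment over input, so a KLF1-only peak is one without a listed Nan-KLF1 peak, and weaker Nan-KLF1 signal at the same place was not analysed here.

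The samples number 16. KLF1 and Nan-KLF1 binding was mapped by chromatin immunoprecipitation (ChIP) and sequencing in K1-ER and K1-NanER cells, made from K1, a KLF1-null erythroblast line, by adding KLF1 or Nan-KLF1 fused to the tamoxifen-responsive part of the estrogen receptor (ER). Both lines received 200 nM 4-hydroxytamoxifen for 3 h, and 3 replicates were pooled into 1 library per factor, with 1 input library each. New RNA, labelled for 1 h with 500 uM 4-thiouridine (4sU) under the same tamoxifen dose, was sequenced from K1-ER cells, from K1-NanER cells and from the parental K1 line, with 2 libraries for each. The 2 K1-ER libraries came from different clones, as did the 2 K1-NanER libraries, so differences between clones are part of every 4sU value. Polyadenylated RNA came from whole fetal liver of embryonic day 14.5, from 3 Klf1 Nan/+ and 3 +/+ (wild-type) embryos, after removal of globin RNA. The wild-type allele is still present in Nan/+ livers and absent from K1-NanER cells. The authors give 1 value per group, so no spread between replicates stands beside any value, overlap between groups cannot be read, and the depth of the libraries is unknown.

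KLF1 is a zinc finger protein that binds CACCC boxes in the promoters and enhancers of red cell genes. It activates adult globin, the enzymes of heme synthesis, proteins of the red cell membrane and its skeleton, and cell cycle genes. The Nan allele changes the DNA-reading face of the second zinc finger, and heterozygous mice have a hemolytic anemia. Each deposited peak has, as the authors' central motif, an 8-base element or none. All listed elements start with CC and end with CCC, with A or C as the third base, A, C or T as the fourth and A, G or T as the fifth. Elements with C in the fourth place and A or G in the fifth are called canonical here: CCACACCC, CCACGCCC, CCCCACCC and CCCCGCCC.

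Promoters of 7 genes with a KLF1-only promoter peak show what these elements look like in place. They are shown because the genes return below: Aqp3 and Rragd moved in opposite directions in K1-ER cells and in Nan/+ liver, Stom, Atg4d and Klf13 rose in K1-ER, Tfr2 fell in K1-NanER, and Sertad1 had the largest rise in K1-ER among genes detected in K1. Each stretch is read 5′ to 3′ on the strand of its gene, from RefSeq on build GRCm38.p6, and ends before the gene start. Capitals mark a copy of the element that the authors list for the peak, or its reverse complement where it lies on the other strand. A marked copy need not be the one at the peak summit. In Klf13 it is centred at -129 bp from the gene start, while the summit lies at -935 bp. The positions are chr4:41098199-41098266 on the minus strand for Aqp3, chr4:32982958-32982997 on the plus strand for Rragd, chr2:35337077-35337144 on the minus strand for Stom, chr9:21265197-21265264 on the plus strand for Atg4d, chr7:63939011-63939078 on the minus strand for Klf13, chr5:137569761-137569828 on the plus strand for Tfr2 and chr7:27486854-27486921 on the plus strand for Sertad1.
Aqp3: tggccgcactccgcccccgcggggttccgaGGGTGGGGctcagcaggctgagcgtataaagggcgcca
Rragd: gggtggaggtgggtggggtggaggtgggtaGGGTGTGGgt
Stom: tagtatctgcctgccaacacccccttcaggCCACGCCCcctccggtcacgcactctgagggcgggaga
Atg4d: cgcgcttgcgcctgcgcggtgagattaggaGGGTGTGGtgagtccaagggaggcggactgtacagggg
Klf13: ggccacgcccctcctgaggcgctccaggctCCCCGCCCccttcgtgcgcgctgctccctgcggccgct
Tfr2: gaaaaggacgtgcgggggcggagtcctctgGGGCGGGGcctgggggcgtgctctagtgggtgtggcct
Sertad1: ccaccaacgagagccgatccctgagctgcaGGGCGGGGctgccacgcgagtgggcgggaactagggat
Stom and Klf13 carry the marked copy on the strand of the gene, and the other 5 carry it on the opposite strand. The marked copy is CCACACCC, the CACCC box of the adult beta-globin promoter, in Rragd and Atg4d. It is CCCCACCC in Aqp3, CCACGCCC in Stom, and CCCCGCCC in Klf13, Tfr2 and Sertad1. Copies of other canonical elements are left unmarked. On the strand opposite to the gene, Tfr2 also holds CCACACCC and Rragd CCCCACCC, and Klf13 holds CCACGCCC on its own strand.

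The KLF1-only promoter peaks were lower and narrower than the shared ones. Peak heights are the authors' fold enrichment of ChIP over input. The median was 75.6-fold in the 1093 KLF1-only promoter peaks (quartiles 52.3 and 130.1) and 133-fold in the 471 shared promoter peaks (quartiles 74.9 and 241). The median width was 727 bp in KLF1-only promoter peaks and 919 bp in shared promoter peaks. These values come from the KLF1 library that the choice of members used, so they are a description without a test. The classes overlapped widely: 262 KLF1-only promoter peaks (24.0%) stood above the median of the shared ones, and 119 shared promoter peaks (25.3%) stood below the median of the KLF1-only ones. KLF1-only peaks outside promoters had a median of 67.6-fold.

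**Figure D1:**
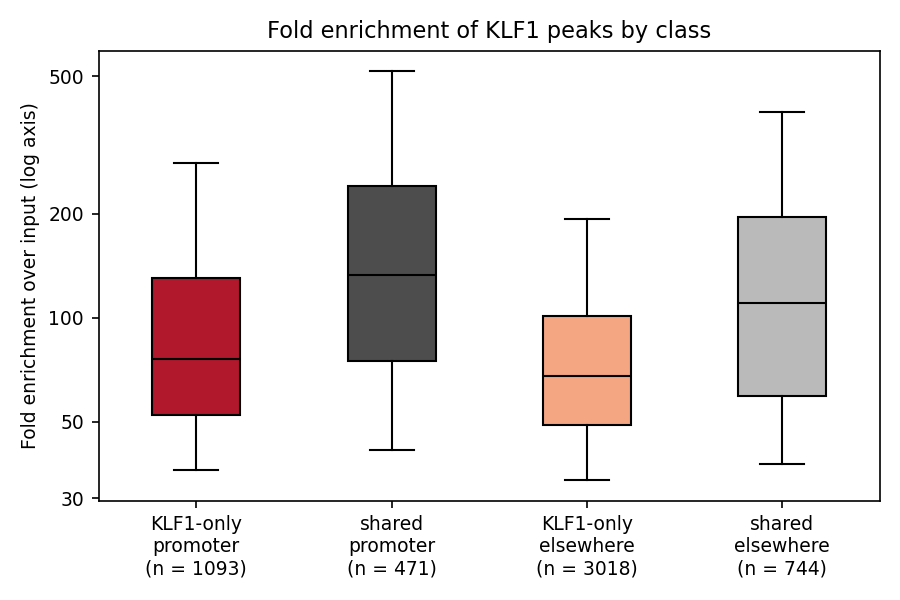
Fold enrichment of KLF1 peaks over input on a log axis, by class; boxes span the quartiles with the median as a line, and whiskers reach the 5th and 95th percentiles. KLF1-only promoter peaks have a median of 75.6-fold and shared promoter peaks one of 133-fold, and the boxes overlap.

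The highest KLF1-only promoter peak reached 754.7-fold enrichment, against 1150.6-fold in the highest shared promoter peak. It lies at 1810058I24Rik, a gene known by its clone name (mm9 chromosome 6, 35202369 to 35203375), 74957 bp from the nearest Nan-KLF1 peak. Gcnt1, which encodes a glycosyltransferase that branches O-glycans, had 673-fold enrichment, and Rab3d, a small GTPase of secretory vesicles, had 666-fold. The Gcnt1 summit lies 16129 bp downstream of the gene start used here. Ankrd10 had 661-fold, Chchd7 628-fold and Mbd2, a reader of methylated DNA, 592-fold. Arl4a at 523-fold and Parp4 at 516.5-fold completed the highest 8, and these 2 have no central motif listed.

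The gap to the nearest Nan-KLF1 peak varied widely among KLF1-only promoter peaks. Gaps of other sites were not computed, so these gaps cannot be called long or short. The median gap was 105201 bp, and 6 members lay on unlocalised contigs without a Nan-KLF1 peak. Within 500 bp of a Nan-KLF1 peak lay 16 members, within 1000 bp 30, within 10000 bp 125 and within 100000 bp 526. At the edge of the rule, the nearest members were those at Ttc7 with a gap of 19 bp and 88.5-fold enrichment, Sp1 with 34 bp and 108-fold, Ezr with 196 bp and 98.7-fold, and Tkt with 209 bp and 131.5-fold. Just outside it stood the shared promoter peaks of Plec with an overlap of 178 bp and 71.1-fold enrichment, Gnl3 with 203 bp and 78.9-fold, C2cd2l with 233 bp and 214.5-fold, and Zfp868 with 243 bp and 111-fold. No promoter peak overlapped by less than 178 bp, so an overlap minimum of 100 bp selected the same 1093 peaks.

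A canonical element was the most frequent class among KLF1-only promoter peaks. Among the canonical elements, CCCCACCC and CCACACCC contain the letters CACCC, and CCCCGCCC and CCACGCCC do not. A canonical element was central in 586 of 1093 KLF1-only promoter peaks (53.6%, 95% Wilson interval 50.7 to 56.6) and in 256 of 471 shared promoter peaks (54.4%, 49.8 to 58.8). The shares of the other peaks lay further apart. Another variant of the element was listed for 21.3% of KLF1-only promoter peaks (19.0 to 23.8) and 29.7% of shared promoter peaks (25.8 to 34.0). No element was listed for 25.1% of KLF1-only promoter peaks (22.6 to 27.7) and 15.9% of shared promoter peaks (12.9 to 19.5). Intervals cover counting error only, and peaks of 1 library are not replicates. Within the KLF1-only promoter peaks, the median fold enrichment was 82.2 with a canonical element, 77.1 with another variant and 70.7 without one.

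**Figure D2:**
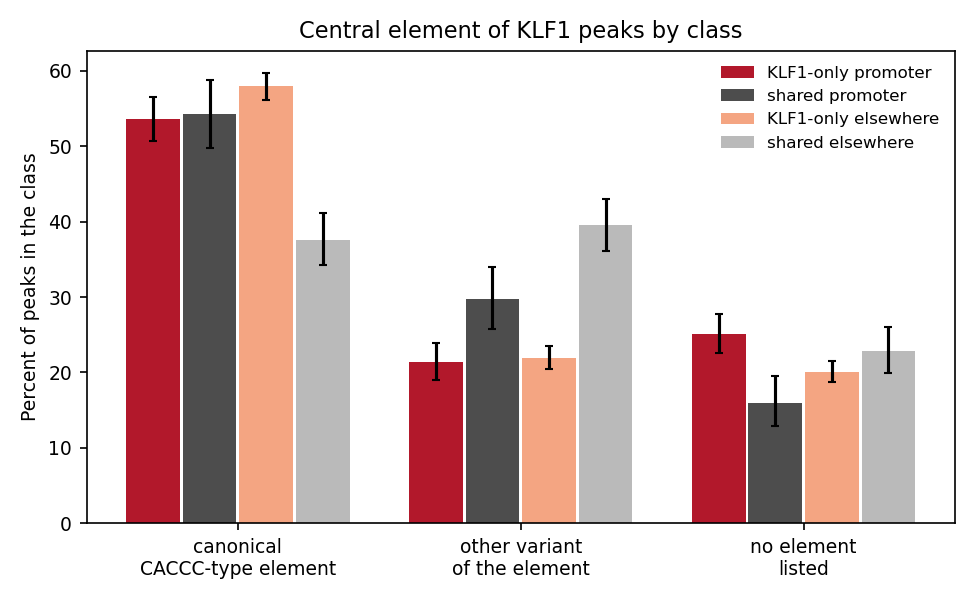
Percent of KLF1 peaks in each class with a canonical element, another variant or no element as the authors' central motif; bars give the percent and error bars the 95% Wilson interval, which covers counting error only. Canonical elements make up 53.6% of KLF1-only promoter peaks and 54.4% of shared promoter peaks, and peaks without an element 25.1% of the KLF1-only and 15.9% of the shared promoter peaks.

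CCCCGCCC was the most frequent element of KLF1-only promoter peaks. Of the 819 members with an element, 283 (34.6%) had CCCCGCCC, 150 (18.3%) CCACGCCC, 113 (13.8%) CCCCACCC and 90 (11.0%) CCCCTCCC. CCACACCC was central in 40 of them (4.88%), in 1.77% of the shared promoter peaks with an element and in 20.4% of the KLF1-only peaks outside promoters. The fourth base, in the middle of the element, was C in 84.6% of KLF1-only promoter peaks with an element (82.0 to 86.9) and in 75.8% of the shared ones (71.3 to 79.7). The fifth base was A in 21.7% (19.0 to 24.7) of the KLF1-only promoter peaks and in 11.4% (8.60 to 14.9) of the shared promoter peaks. It was G in 60.3% of the KLF1-only and 72.0% of the shared promoter peaks. The choice of members used both factors' binding and not these letters, and no test was run on them.

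The reference promoters of the genes with a KLF1-only promoter peak held the same elements. RefSeq windows of 300 bases, from 250 before to 50 after the gene start on GRCm38.p6, were found for 810 of the 1074 genes and gave 1082 windows. The 4 canonical elements were searched on both strands. At least 1 was present in 66.6% of these windows (63.8 to 69.4), in 69.7% of the windows of genes with a shared promoter peak and in 29.7% of all 32851 windows. CCCCGCCC was found in 48.0% of the windows of genes with a KLF1-only promoter peak and 17.6% of all windows, CCACGCCC in 19.3% of the KLF1-only windows and 5.33% of all, CCCCACCC in 20.6% of the KLF1-only windows and 9.99% of all, and CCACACCC in 6.65% of the KLF1-only windows and 3.56% of all. The median GC content was 64.7% in the windows of genes with a KLF1-only promoter peak and 52.7% in all windows, and its part in these shares was not tested. A match of letters is a description and not a binding site.

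The element that the authors list for a peak was searched for in the 300-base window alone, which fixes where it can be found. It was there for 480 of 629 KLF1-only promoter peaks with an element and a window (76.3%, 72.8 to 79.5) and for 243 of 295 shared promoter peaks (82.4%, 77.6 to 86.3). A match of so short an element can stand in a window without being the one under the peak: CCCCGCCC was in 48.0% of the windows of genes with a KLF1-only promoter peak. Peak summits could be placed against mm9 gene starts for 203 KLF1-only promoter peaks, those whose gene is in an expression table and has a RefSeq strand. Their median distance was -122 bp (quartiles -257.5 and -24), and 91.1% lay within 1000 bp of the start, 86.5% of these upstream. The median was -75 bp for 117 shared promoter peaks, of which 90.6% lay within 1000 bp.

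**Figure D3:**
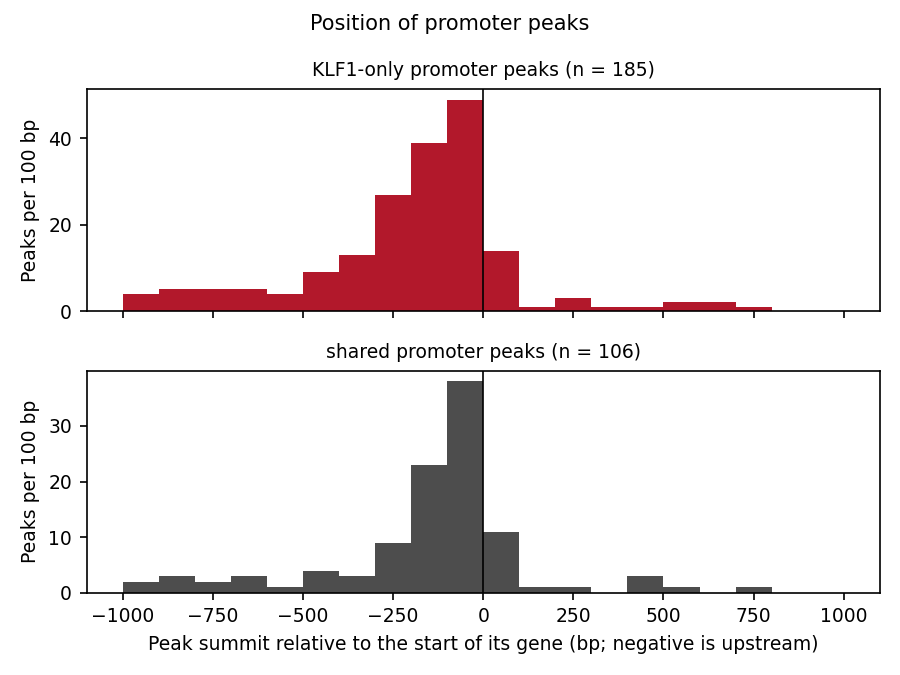
Distance of peak summits from the start of their gene, in 100 bp bins up to 1000 bp on either side, for KLF1-only promoter peaks above and shared promoter peaks below; negative values are upstream. Both classes peak in the bin just upstream of the start.

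The 1093 peaks belong to 1074 genes, of which 19 have 2 such peaks. Another KLF1 peak was assigned to 304 of these genes, a shared promoter peak to 8 and a Nan-KLF1 peak elsewhere to 149. Of the 1074 genes, 243 (22.6%) have a row in the authors' deposited 4sU table and 50 (4.66%) in their liver table, while 31.0% of genes with a shared promoter peak have a 4sU row. Both tables list only genes that passed the authors' test in at least 1 comparison, so all shares below are among listed genes, and the genes tested without a call were not analysed here. Of 10 erythroid markers 7 are in the authors' deposited table, and all 7 rose in K1-ER, with a sum of 4937 FPKM in K1-ER, 757 FPKM in K1-NanER and 289 FPKM in parental K1. Esr1, whose hormone-binding domain the fusions carry, stood at 136 FPKM in K1-ER, 70.3 FPKM in K1-NanER and 2.41 FPKM in parental K1, by the authors' deposited table. FPKM is a level per gene length and library size, and the part of this gap in any difference between the lines was not tested.

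New RNA of genes with a KLF1-only promoter peak rose more often than it fell in K1-ER cells. In the authors' deposited table, 147 of the 243 listed genes (60.5%, 54.2 to 66.4) rose past a q of 0.05 in K1-ER against K1, beside 37.9% of all 1556 genes of the table. In the same comparison 6 (2.47%) fell, beside 11.5% of the table. At a q of at most 0.01, for which the share of the table was not computed, 1 fell. Among genes with a shared promoter peak, 70.6% rose in the authors' deposited table (62.7 to 77.5). Genes with a KLF1-only peak outside promoters gave nearly the same share as the 243, at 59.8% (54.9 to 64.5). Genes can belong to more than 1 of these sets. The median log2 fold change in the authors' deposited table was 1.28 over the 243 genes, 1.62 over genes with a shared promoter peak and 0.72 over the table. It was 1.22 over genes with a KLF1-only peak outside promoters. In 17 of the 243 genes, K1 stands at 0.1 FPKM, the floor at which the authors show 0, and without genes at the floor the medians were 1.18 for the KLF1-only promoter peaks, 1.56 for the shared ones and 0.66 for the table.

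The share of rises in K1-ER was higher among genes with a Nan-KLF1 peak elsewhere and among genes with further KLF1 peaks, and neither difference was tested. In the authors' deposited table, 45 of 56 listed genes (80.4%, 68.2 to 88.7) that also have a Nan-KLF1 peak elsewhere rose, and 102 of 187 (54.5%, 47.4 to 61.5) of those without any Nan-KLF1 peak. Of genes with 2 or more KLF1 peaks, 76 of 106 (71.7%, 62.5 to 79.4) rose in the authors' deposited table, and of genes with only the KLF1-only promoter peak, 71 of 137 (51.8%, 43.5 to 60.0). By central motif the shares lay closer together: 63.3% rose with a canonical element, 55.1% with another variant and 60.0% without an element in the authors' deposited table, with overlapping Wilson intervals.

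The share of genes with a KLF1-only promoter peak that rose in K1-NanER cells was near that of the whole table. A second promoter peak, one that overlaps a Nan-KLF1 peak, is listed for 8 of all genes with a KLF1-only promoter peak. In the authors' deposited table, 130 of 243 (53.5%, 47.2 to 59.7) rose in K1-NanER against K1, beside 47.4% of the table, and 30 (12.3%, 8.79 to 17.1) fell, beside 28.3% of the table. Genes with a shared promoter peak had similar shares in K1-NanER: 55.9% (47.8 to 63.8) rose and 9.79% fell. For genes with a KLF1-only peak outside promoters, 50.3% (45.4 to 55.1) rose and 14.6% fell. The median log2 fold change in the authors' deposited table was 1.16 over the 243 genes and 1.04 over the table. It was 1.38 over genes with a shared promoter peak and 1.09 over genes with a KLF1-only peak outside promoters. Of the 30 that fell, 28 have no Nan-KLF1 peak assigned anywhere: 28 of 187 such genes (15.0%, 10.6 to 20.8) and 2 of 56 with a Nan-KLF1 peak elsewhere (3.57%, 0.985 to 12.1) in the authors' deposited table. At a q of at most 0.01 the counts were 73 risen and 12 fallen, and the shares of the whole table at this threshold were not computed. Both comparisons use the same K1 libraries, so their shares are not independent. Set directly against each other, the levels in the authors' deposited table were lower in K1-NanER than in K1-ER for 146 of 243 genes with a KLF1-only promoter peak (60.1%), 67.6% of those with a shared one and 56.4% of the table, with a median log2 ratio of -0.44 for KLF1-only promoter genes, -0.57 for shared promoter genes and -0.30 for the table. The difference between K1-NanER and K1-ER itself was not tested.

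Among genes of the red cell membrane and its skeleton, 9 of 37 listed names have a KLF1-only promoter peak, and all 6 with a 4sU row rose in K1-ER, while 2 of these rose in K1-NanER. Over the whole list, 11 of 13 names in the 4sU table rose in K1-ER and 5 of 13 in K1-NanER. Add2, the beta subunit of the skeletal protein adducin, was at 64.3 FPKM in K1-ER, 32.9 FPKM in K1-NanER and 12.2 FPKM in parental K1, by the authors' deposited table, and rose in both (q = 0.00213 in K1-ER and 0.00381 in K1-NanER). Ermap, an adhesion protein that carries blood group antigens, was at 85.6 FPKM in K1-ER, 46.4 FPKM in K1-NanER and 21.3 FPKM in parental K1, and rose in both in the authors' deposited table (q = 0.00213 in K1-ER and 0.0127 in K1-NanER). Both genes stand highest in K1-ER and lowest in K1.

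The other 4 membrane genes passed the authors' test in K1-ER alone. Gypc, the glycophorin that anchors the skeleton, was at 42.2 FPKM in K1-ER, 21.2 FPKM in K1-NanER and 12.5 FPKM in parental K1, by the authors' deposited table. Rhd, an Rh blood group protein, was at 35.0 FPKM in K1-ER, 14.9 FPKM in K1-NanER and 14.8 FPKM in parental K1, by the authors' deposited table. Stom, which encodes stomatin, was at 86.2 FPKM in K1-ER, 60.3 FPKM in K1-NanER and 43.8 FPKM in parental K1, by the authors' deposited table. Their q values in K1-NanER were 0.250 for Gypc, 0.994 for Rhd and 0.474 for Stom in the authors' deposited table, which does not show that the gene did not change. Aqp3, a channel for water and glycerol, was at 33.6 FPKM in K1-ER, 8.39 FPKM in K1-NanER and 14.5 FPKM in parental K1, by the authors' deposited table (q = 0.0294 in K1-ER and 0.342 in K1-NanER). Aqp3 is thus the only one of the 6 whose level in K1-NanER lies under that in K1. Its peak (mm9 chromosome 4, 41044957 to 41045741) had 105-fold enrichment and lies 40645 bp from a Nan-KLF1 peak.

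Of the heme and iron genes, 5 of 27 listed names have a KLF1-only promoter peak, 4 of them have a 4sU row, and 3 rose in K1-ER. Over the whole list, 10 of 14 names in the 4sU table rose in K1-ER. Abcb10, a mitochondrial transporter needed for hemoglobin production, was at 364 FPKM in K1-ER, 222 FPKM in K1-NanER and 104 FPKM in parental K1, by the authors' deposited table (q = 0.00381 in K1-ER and 0.0578 in K1-NanER). Steap3, which reduces iron taken up by the transferrin cycle, was at 30.5 FPKM in K1-ER, 15.5 FPKM in K1-NanER and 9.23 FPKM in parental K1, by the authors' deposited table (q = 0.00213 in K1-ER and 0.264 in K1-NanER). Both genes stood highest in K1-ER. The summit of the Steap3 peak lies 5635 bp downstream of the gene start used here. Tfr2, an iron-sensing transferrin receptor, had another pattern: it fell to 9.67 FPKM in K1-NanER and was at 22.8 FPKM in K1-ER, against 33.3 FPKM in K1, by the authors' deposited table (q = 0.00213 in K1-NanER and 0.392 in K1-ER). Fth1, the ferritin heavy chain, has a KLF1-only promoter peak and no row in either table. None of the 15 listed globin and globin chaperone names has a KLF1-only promoter peak.

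**Figure D4:**
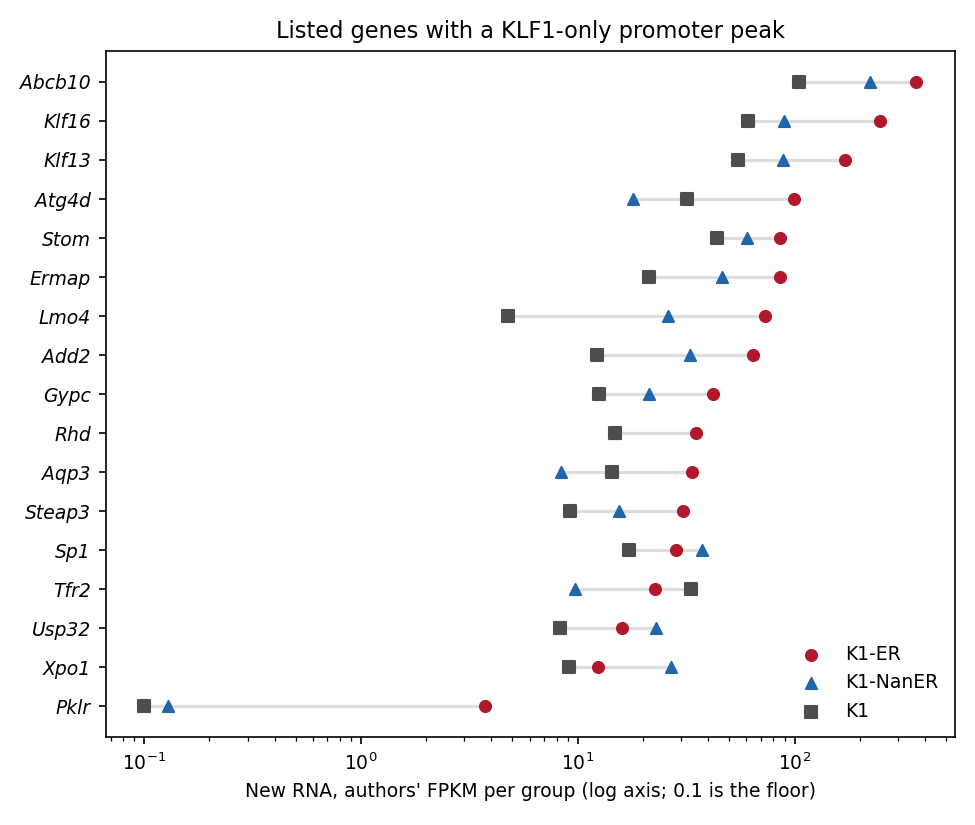
New RNA of 17 genes on the lists that have a KLF1-only promoter peak, as the authors' FPKM per group on a log axis, with circles for K1-ER, triangles for K1-NanER and squares for K1; each symbol is 1 value per group without error. K1-ER stands highest in 13 of the 17 genes shown, Sp1, Usp32 and Xpo1 stand highest in K1-NanER, Tfr2 stands highest in K1, and Pklr sits at the floor of 0.1 FPKM in K1.

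Of the 5 genes on the regulator lists with a KLF1-only promoter peak and a 4sU row, 4 rose in K1-ER. These were Lmo4, Klf16, Klf13 and Pklr, an enzyme gene on the erythroid regulator list that is described below. Lmo4, a LIM-only partner of erythroid transcription complexes, was at 73.1 FPKM in K1-ER, 26.1 FPKM in K1-NanER and 4.76 FPKM in parental K1, and rose in both in the authors' deposited table (q = 0.00213 in each). The summit of the Lmo4 peak lies 2936 bp downstream of the gene start used here. Klf16, a relative of KLF1, was at 247 FPKM in K1-ER, 89.6 FPKM in K1-NanER and 60.8 FPKM in parental K1, by the authors' deposited table, and rose in K1-ER alone (q = 0.00213 in K1-ER and 0.346 in K1-NanER). Klf13, another relative, was at 172 FPKM in K1-ER, 88.1 FPKM in K1-NanER and 55.1 FPKM in parental K1, by the authors' deposited table (q = 0.00213 in K1-ER and 0.273 in K1-NanER). Sp1, which binds GC boxes, had another order of levels: it was at 28.5 FPKM in K1-ER, 37.5 FPKM in K1-NanER and 17.2 FPKM in parental K1, and rose in K1-NanER alone (q = 0.184 in K1-ER and 0.0168 in K1-NanER) by the authors' deposited table. A shared promoter peak of Sp1 has its summit at -81 bp from the start with 88.8-fold enrichment, and the KLF1-only summit lies at -937 bp. Over the whole lists, the 4sU table calls a K1-ER rise for 9 of 10 names on the erythroid regulator list and for 5 of 9 members of the Kruppel-like and Sp list. Of the 28 names on the erythroid regulator list 4 have a KLF1-only promoter peak, and of the 22 Kruppel-like and Sp factors 3 do.

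Atg4d, an autophagy protease, was at 99.0 FPKM in K1-ER, 18.03 FPKM in K1-NanER and 32.0 FPKM in parental K1, by the authors' deposited table, and rose in K1-ER (q = 0.0351). Usp32, a deubiquitinase, and Xpo1, a nuclear export receptor, passed the authors' test in K1-NanER alone, at 23.1 FPKM against 8.25 FPKM in K1 and at 27.0 FPKM against 9.08 FPKM in K1, by the authors' deposited table (q = 0.00213 for each). In K1-ER, Usp32 was at 16.05 FPKM, just short of the threshold (q = 0.0516), and Xpo1 at 12.45 FPKM (q = 0.529). The cell cycle list has 8 of 39 names with a KLF1-only promoter peak, namely Aurkb, Ccnb1, Ccnd2, Cdk1, Cdk2, Cdk4, E2f8 and Mcm2, and none of them has a row in either table. The list of apoptosis and stress genes has 2 of 24, Asns and Bid, also without a row.

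The 10 steepest rises in K1-ER among genes with a KLF1-only promoter peak all start from the floor of 0.1 FPKM in K1, so their folds are not given. In the authors' deposited table, K1-ER levels of these genes ran from 3.05 FPKM in Clic1 to 7.86 FPKM in Hs3st6, which makes a form of heparan sulfate. Pklr, the pyruvate kinase of red cells, was at 3.74 FPKM in K1-ER, 0.130 FPKM in K1-NanER and the floor in K1, by the authors' deposited table (q = 0.00213 in K1-ER and 1 in K1-NanER). Gm7325 was at 6.19 FPKM in K1-ER, 0.104 FPKM in K1-NanER and the floor in K1, by the authors' deposited table. Slc6a3, the dopamine transporter, was higher in K1-NanER, at 3.40 FPKM in K1-ER, 7.16 FPKM in K1-NanER and the floor in K1, by the authors' deposited table. This gene also has a shared promoter peak, with its summit at -28 bp from the start and 219-fold enrichment, while the summit of its KLF1-only peak lies at -948 bp with 38.9-fold enrichment.

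Genes already detected in K1 were then ranked, a ranking added after the values were seen. Sertad1, a cell cycle regulator that binds CDK4, was at 423 FPKM in K1-ER, 71.1 FPKM in K1-NanER and 14.6 FPKM in parental K1, by the authors' deposited table, with log2 fold changes of 4.85 in K1-ER cells and 2.28 in K1-NanER cells. Lrrc4b, a leucine-rich repeat protein, was at 12.5 FPKM in K1-ER, 0.411 FPKM in K1-NanER and 0.593 FPKM in parental K1, by the authors' deposited table (q = 0.0271 in K1-ER and 1 in K1-NanER). Ifngr2, a chain of the interferon gamma receptor, stood close in both lines, at 60.0 FPKM in K1-ER, 53.6 FPKM in K1-NanER and 3.79 FPKM in parental K1, by the authors' deposited table. Glipr2, Lmo4, Kcna4, Mical1, Rragd, Ppp1r18 and Btg2 completed the 10, with log2 fold changes in K1-ER of 4.30 to 3.64 in the authors' deposited table.

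Some genes with a KLF1-only promoter peak rose in both lines and stood higher in K1-NanER than in K1-ER. Azin1, which raises polyamine synthesis, was at 25.6 FPKM in K1-ER, 124 FPKM in K1-NanER and 6.46 FPKM in parental K1, by the authors' deposited table, with log2 fold changes of 1.99 in K1-ER cells and 4.27 in K1-NanER cells. Fads3, of the fatty acid desaturase family, was at 42.5 FPKM in K1-ER, 101 FPKM in K1-NanER and 5.57 FPKM in parental K1, by the authors' deposited table. Btg2, an inhibitor of proliferation, was at 337 FPKM in K1-ER, 488 FPKM in K1-NanER and 27.0 FPKM in parental K1, by the authors' deposited table. Nan-KLF1 peaks elsewhere are assigned to each of these genes: 2 to Azin1, 1 to Fads3 and 3 to Btg2. Other genes with this order of levels have no Nan-KLF1 peak assigned, among them Gas5, Sirt1 and Lrrc42. Whether such peaks go with higher levels in K1-NanER was not tested. The KLF1-only peak of Fads3 lies 245 bp from a Nan-KLF1 peak. Log2 ratios of K1-NanER over K1-ER reached 1 or more in 8.23% of KLF1-only promoter genes and 12.9% of the table.

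Hist1h1b, a linker histone, fell to 319 FPKM in K1-ER and to 179 FPKM in K1-NanER, against 1037 FPKM in parental K1, by the authors' deposited table (q = 0.00213 in each). Hist1h2an, a core histone of a multigene family whose reads can be split between near-identical copies, fell to 25.5 FPKM in K1-ER and to 23.4 FPKM in K1-NanER, against 102 FPKM in parental K1, by the authors' deposited table. Another histone gene with a KLF1-only promoter peak, Hist1h2ac (chosen after its values were seen), went the other way in K1-NanER cells, where it rose to 61.8 FPKM and was at 18.2 FPKM in K1-ER, against 28.04 FPKM in parental K1, by the authors' deposited table (q = 0.0213 in K1-NanER and 0.326 in K1-ER). Amacr, an enzyme of branched fatty acid oxidation, fell to 0.581 FPKM in K1-ER and to 0.947 FPKM in K1-NanER, against 7.81 FPKM in parental K1, by the authors' deposited table (q = 0.0493 in K1-ER and 0.0286 in K1-NanER).

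For Gpx1 and Fam89b the fall was called in K1-NanER and the level in K1-ER lay above that in K1. Gpx1, the peroxide-removing glutathione peroxidase of red cells, fell to 20.5 FPKM in K1-NanER and was at 284 FPKM in K1-ER, against 141 FPKM in K1, by the authors' deposited table (q = 0.00213 in K1-NanER and 0.0504 in K1-ER). Its peak had 114-fold enrichment and no central element, and no Nan-KLF1 peak is assigned to the gene. Fam89b, chosen after its values were seen, rose to 81.6 FPKM in K1-ER but fell to 6.06 FPKM in K1-NanER, against 20.7 FPKM in parental K1, by the authors' deposited table (q = 0.00213 in K1-ER and 0.0453 in K1-NanER). Pgls, an enzyme of the pentose phosphate pathway, fell to 12.0 FPKM in K1-NanER and was at 26.0 FPKM in K1-ER, against 54.1 FPKM in K1, by the authors' deposited table, and so lay under K1 in both lines.

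In fetal liver the genes with a KLF1-only promoter peak were split between both directions. In the authors' deposited table, 30 of the 50 listed genes (60.0%, 46.2 to 72.4) were higher in Nan/+ than in wild-type liver, beside 75.4% of all 793 genes of the table, and 20 (40.0%, 27.6 to 53.8) were lower, beside 24.6% of the table. At a q of at most 0.01, 12 were higher and 12 lower, and the shares of the whole table at this threshold were not computed. Of the 31 listed genes with no other KLF1 peak, 22 were higher and 9 lower, and of the 19 with 2 or more KLF1 peaks, 8 were higher and 11 lower, in the authors' deposited table. The split was not particular to this class. Of genes with a KLF1-only peak outside promoters, 57.3% (48.2 to 65.9) were higher in Nan/+ liver. Of genes with a shared promoter peak, 70.4% (51.5 to 84.15) were higher, with overlapping intervals. In whole liver, fewer cells of a type and less RNA per cell cannot be told apart. All 9 granulocyte markers were in the table and higher in Nan/+ liver, with a summed level of 2767 FPKM in Nan/+ and 469.6 FPKM in wild-type liver in the authors' deposited table. In the authors' deposited table, 2 of 8 macrophage markers were also higher, summing to 79.9 FPKM in Nan/+ and 37.96 FPKM in wild-type liver, and 2 of 7 megakaryocyte markers, summing to 635 FPKM in Nan/+ and 250.5 FPKM in wild-type liver. Skeletal muscle markers went the other way, with 6 of 11 lower and a sum of 1.75 FPKM in Nan/+ and 43.5 FPKM in wild-type liver in the authors' deposited table. The 1 erythroid marker in the authors' deposited liver table, the embryonic globin Hbb-bh1, was at 4399 FPKM in Nan/+ and 429 FPKM in wild-type liver. No marker has a KLF1-only promoter peak, no hepatocyte marker is in the liver table, and the part of cell composition in the values below was not tested.

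The genes that were higher in Nan/+ liver were of varied kind. Ass1, an enzyme of arginine and urea synthesis, was at 802 FPKM in Nan/+ and 41.3 FPKM in wild-type liver in the authors' deposited table, a log2 fold change of 4.28 (q = 0.00244). Inf2, an actin-regulating formin, was at 81.6 FPKM in Nan/+ and 5.57 FPKM in wild-type liver in the authors' deposited table. Psap, which encodes the precursor of lysosomal saposins, was at 526 FPKM in Nan/+ and 131 FPKM in wild-type liver, and Lgals3, a galectin that macrophages make, at 34.5 FPKM in Nan/+ and 8.01 FPKM in wild-type liver, in the authors' deposited table. Tfeb, a regulator of lysosome genes, was at 11.9 FPKM in Nan/+ and 4.13 FPKM in wild-type liver in the authors' deposited table. Nrtn, Parvb and Fads3 completed the 8 steepest, with log2 fold changes of 2.36, 2.14 and 1.55 by the authors' deposited table.

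Of the listed genes with a KLF1-only promoter peak, 1 of the red cell membrane (Aqp3), 1 of heme and iron (Steap3) and 1 on the erythroid regulator list (Pklr) were in the liver table, and all 3 were lower in Nan/+. Over the whole lists, names in the liver table that were lower in Nan/+ numbered 3 of 4 for the membrane and 5 of 6 for heme and iron. On the erythroid regulator list 3 of 6 were lower. Aqp3 fell to 1.97 FPKM in Nan/+, against 12.8 FPKM in wild-type liver, in the authors' deposited table, a log2 fold change of -2.70 (q = 0.00244). Pklr fell to 81.0 FPKM in Nan/+, against 227 FPKM in wild-type liver, and Steap3 to 30.7 FPKM in Nan/+, against 72.1 FPKM in wild-type liver, in the authors' deposited table (q = 0.00244 for Pklr and 0.00611 for Steap3). Rragd, a Rag GTPase that links amino acid supply to mTOR signalling, fell to 0.690 FPKM in Nan/+, against 3.45 FPKM in wild-type liver, in the authors' deposited table. Myl4, an atrial and embryonic myosin light chain, fell to 0.720 FPKM in Nan/+, against 5.92 FPKM in wild-type liver, in the authors' deposited table, beside the fall of the muscle markers. Dnase1l1, an X-linked gene, fell to 4.41 FPKM in Nan/+, against 12.7 FPKM in wild-type liver, and Xist, an RNA of the inactive X chromosome, stood at 0.0400 FPKM in Nan/+ and 25.1 FPKM in wild-type liver, in the authors' deposited table. The labels used here give no sex for the embryos, so a difference in their sex and the genotype cannot be told apart in the liver comparison. Ift140, a protein of cilium transport, fell to 4.98 FPKM in Nan/+, against 24.1 FPKM in wild-type liver, in the authors' deposited table.

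**Figure D5:**
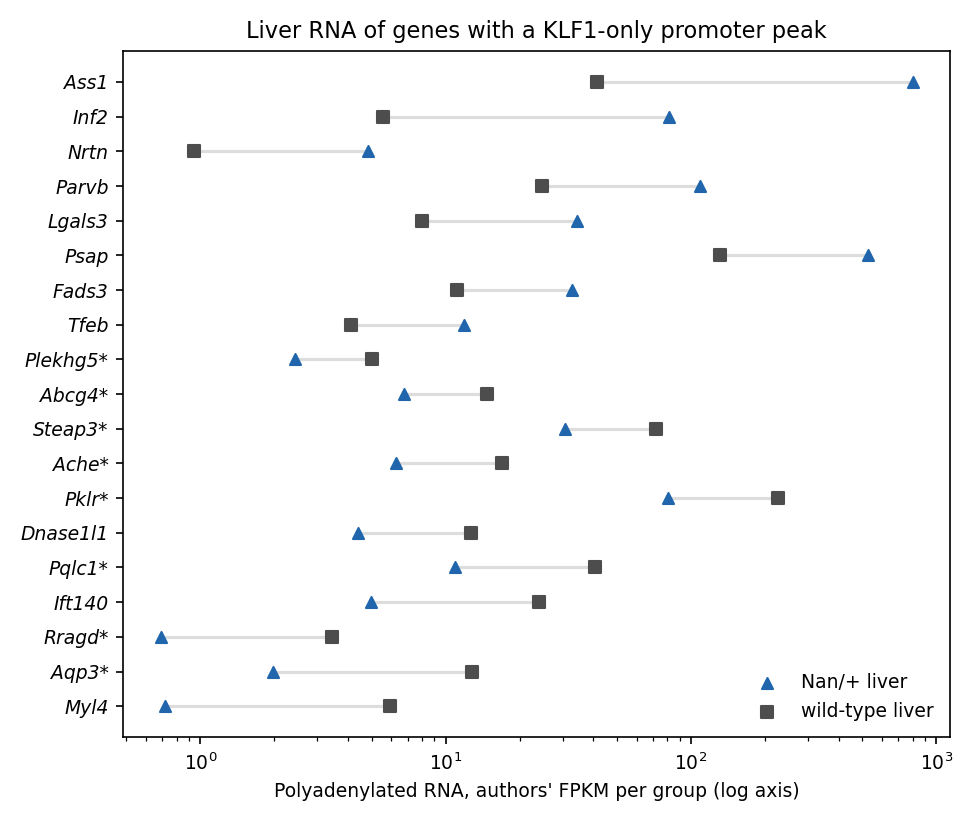
Polyadenylated RNA of fetal liver for the named genes with a KLF1-only promoter peak, as the authors' FPKM per group on a log axis, with triangles for Nan/+ and squares for wild-type liver; asterisks mark genes that rose in K1-ER cells and fell in Nan/+ liver. Ass1 has the widest rise, at 802 FPKM in Nan/+ and 41.3 FPKM in wild-type liver.

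Of the 20 genes with a KLF1-only promoter peak that were lower in Nan/+ liver, 8 (40.0%) had risen in K1-ER cells in the authors' deposited tables, which is 5.44% of the 147 that rose in K1-ER. Over all genes of the authors' deposited tables, 25 of the 195 that were lower in Nan/+ liver (12.8%) had risen in K1-ER, which is 4.24% of the 589 that rose. The 8 genes were Abcg4, Ache, Aqp3, Pklr, Plekhg5, Pqlc1, Rragd and Steap3. Of the 30 that were higher in Nan/+ liver, 9 (30.0%) had also risen in K1-ER in the authors' deposited tables, beside 39 of 598 (6.52%) over all genes. Genes with rows in both tables number 22, and no gene that fell in K1-ER was among them with a call in liver.

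Most of these 8 genes did not pass the authors' test in K1-NanER cells. Ache, the acetylcholinesterase that red cells carry on their surface, was at 195 FPKM in K1-ER, 27.5 FPKM in K1-NanER and 24.3 FPKM in parental K1, by the authors' deposited table (q = 0.00213 in K1-ER and 0.869 in K1-NanER). Ache in liver fell to 6.27 FPKM in Nan/+, against 17.0 FPKM in wild type, in the authors' deposited table. Pqlc1, a membrane protein with PQ loops, was at 33.4 FPKM in K1-ER, 8.23 FPKM in K1-NanER and 14.0 FPKM in parental K1, by the authors' deposited table, and fell to 10.9 FPKM in Nan/+ liver, against 40.5 FPKM in wild-type liver. Rragd was the 1 of the 8 that passed in K1-NanER too, at 31.9 FPKM in K1-ER, 11.4 FPKM in K1-NanER and 2.41 FPKM in parental K1, by the authors' deposited table. Abcg4, a sterol transporter, was at 53.8 FPKM in K1-ER, 32.6 FPKM in K1-NanER and 24.7 FPKM in parental K1, and Plekhg5, a guanine nucleotide exchange factor, at 5.15 FPKM in K1-ER, 3.70 FPKM in K1-NanER and 0.791 FPKM in parental K1, by the authors' deposited table. A Nan-KLF1 peak is assigned to 1 of the 8, Plekhg5.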

How the data were processed

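The files used were the authors' deposited peak lists for KLF1 and Nan-KLF1, their table of 4sU genes and their table of fetal liver genes. MACS 1.4.2, TopHat2 2.0.10 and build mm9 are named per the submitters' processing notes; the program behind FPKM and q values is not given in the sources used here. The deposited FPKM, log2 fold change, p-value and q-value of a gene are 1 value per group or comparison, made by the authors from all replicates. Each peak's deposited fold enrichment is a ratio to input that the authors computed, and the authors' rank score was not used. The authors also assigned each peak its location, gene and central motif.

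Intervals of both lists were compared in Python 3.11.15 with pandas 2.3.3, after the code had been tested on simulated data. A gene was called at the authors' q of at most 0.05. Gene names matched RefSeq symbols for 1016 of 1074 genes; 4 names are numbers and matched none. Elements were searched in RefSeq promoter windows, not in mm9. Intervals are 95% Wilson intervals. Depth per sample is unknown, and no model was fitted, since the tables hold no values per sample. The labels do not name separate cultures for the K1 libraries or separate litters for the livers.

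Members, gene lists and markers were chosen with earlier results of these data known. The values of 1 listed gene are not reported here, though the list's counts include it. Named peaks are the 8 of highest fold enrichment, the 4 nearest to a Nan-KLF1 peak and the 4 promoter peaks of smallest overlap. Named genes, each with a KLF1-only promoter peak and at least 1 FPKM in the higher group, are the 10 largest rises and 6 largest falls per 4sU comparison, the 8 of each in liver, those called oppositely in K1-ER and liver, and all on the gene lists with a row in a table. Alternatives changed the overlap rule, the peak height, the set of genes, the q threshold, the FPKM minimum and the log scale.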

Additional observations from a re-analysis of the deposited data

How the results depend on the processing

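The 11 summary results were recomputed under 80 alternatives, of which 69 stayed within 1.5 times the count or within the interval of the percent or median. Some of these could not move: an overlap minimum of 100 bp selected the same 1093 peaks. The minimum of 1 FPKM in the higher group changed no count. Only the median log2 fold changes could turn direction, and none did. KLF1 peaks of at least 50-fold enrichment gave a median of 96.1-fold, as this choice removes the lower peaks, and 3 genes that fell in K1-ER. A q of at most 0.01 left 1 gene fallen in K1-ER, 73 risen and 12 fallen in K1-NanER, and 12 higher and 12 lower in Nan/+ liver. The counts in liver thus depend on the threshold, and the shares of the whole tables at 0.01 were not computed. Genes with no other KLF1 peak gave 71 risen in K1-ER, 78 risen in K1-NanER and 9 lower in Nan/+ liver. With log2 of FPKM + 1 the median in K1-NanER was 1.05. Leaving out genes at the floor, an alternative added after the values were seen, gave a median of 1.18 with 130 genes risen in K1-ER, and a median of 1.12 with 122 genes risen in K1-NanER. No paired analysis was possible because the files give 1 value per group, and for the same reason no replicate could be left out and no outlying sample sought. With 1 pooled library per factor, a KLF1-only peak has no replicate check.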
